A study of Mus musculus with 9 samples.

Results

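The genes described here encode the contractile machinery of the heart muscle cell and the proteins that sense load on it: thin and thick filaments, titin and the nebulin family, the Z-disc, stress-responsive proteins of the sarcomere and intercalated disc, and desmin with its chaperones. They were chosen by symbol from a list of 48 genes, of which 47 were listed in the count table of 13890 genes and all 47 passed the filter on low counts, which kept 13364 genes. The gene not listed was Myozap. RNA was sequenced from the hearts of 9 male NSG mice, an immunodeficient strain that accepts grafts of human cells. All mice were 8 weeks old at surgery. The sham group (S, animals 2, 3 and 5) received saline into the spleen. The group labelled T (animals 11, 12 and 15) received HCT116 cells, a human colorectal cancer line that spreads from the spleen to the liver. The group labelled A+T (animals 20, 21 and 22) received the same cells and weekly ACVR2B/Fc. This is a soluble form of the activin receptor type IIB fused to an Fc fragment, which traps activins, myostatin and related ligands. The comparisons ask how these genes differ between hearts of tumour hosts and sham hearts, and between hosts with and without the antagonist. A single tumour line was used, so the host groups stand for that line in that strain.

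In the sarcomere, thick filaments of myosin slide along thin filaments of actin, troponin and tropomyosin, while titin spans from the Z-disc to the M-band and bears passive tension. Z-disc proteins anchor the thin filaments through α-actinin and carry stretch signals, and several of them are known to rise in the overloaded or failing heart. Fetal, atrial and skeletal forms of actin, troponin and myosin light chain exist beside the adult ventricular forms, and the balance between such forms is known to shift in stressed hearts.

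The 9 libraries held 12392222 to 19732471 counts, of which the 47 genes took 6.75 to 9.70%. Levels are given as CPM (counts relative to the TMM-scaled library total). Before TMM scaling, 3 counts correspond to 0.152 to 0.242 CPM, and such limits cover counting error only. Differences are log2 fold changes with their standard error from edgeR's quasi-likelihood test on all genes, with a Benjamini-Hochberg adjusted P-value threshold of 0.05. The libraries labelled T need a caution, which rests on 378 genes with listed fold changes. Their change from sham had a Pearson's r of 0.30 with the list for untreated hosts. With the list for ACVR2B/Fc without a tumour it had 0.9998. A+T vs. S had 0.9999 with the sum of 2 listed changes, untreated hosts vs. sham and treated vs. untreated hosts. The untreated group cancels in that sum, so it does not bear on the T labels. Genes are not independent replicates, and an exchange of library labels cannot be told apart here from an exchange of list columns. Directions below are those of the libraries as labelled. In whole heart RNA, fewer cells of a type and less RNA per cell cannot be told apart.

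Markers of fibroblasts, endothelium and smooth muscle differed between the groups. Over all 13364 genes, 10.3% were called higher and 11% lower in T vs. S. The 5 fibroblast markers summed to 1184-1395 CPM in sham, 769.9-893 in T and 935-1364 in A+T, and 5 of 5 fell in T. The 4 endothelial markers summed to 657-770.4 CPM in sham, 388-488 in T and 506-594 in A+T, with 3 of 4 lower in T, and the 5 smooth muscle markers to 269-282, 139-196 and 165-199, with 3 of 5 lower in T. The 6 cardiomyocyte markers (Myh6, Ryr2, Pln, Atp2a2, Tnnt2 and Myl2) were all far above 0. Their sums were 59659-65929 CPM in sham, 54593-63404 in T and 46423-63988 in A+T, ranges that overlap. In T vs. S, 2 of 6 rose and 0 fell. The 2 were Pln (log2 fold change 0.38, adjusted P = 0.042) and Tnnt2 (0.34, adjusted P = 0.036). Myh6, the largest part of each sum, was not called (-0.58, adjusted P = 0.083), though all its T libraries lay below S. Tnnt2 and Myl2 are also among the genes described here, so this list is not independent of them. Of 13 skeletal muscle markers 7 were in the table, and their sum was 45.9-53.4 CPM in sham, 61.3-86.2 in T and 46.3-60.8 in A+T, a sum led by Mybpc2. In T vs. S 1 of these rose (Mybpc2), while 2 fell (Actn3 and Casq1). Airway and lung markers (3 of 5 in the table) summed to 1278 CPM in A+T animal 22 and 104 in T animal 12, against 0.497 to 2.38 in the other libraries, and Scgb1a1 had 0 counts in 3 libraries. The part of these cell types in the results was not tested.

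Short stretches upstream of 5 of the genes are shown to place the motifs of known regulators of muscle promoters (the CArG box of SRF and the M-CAT element of TEAD factors) beside genes that were higher or lower. They are RefSeq sequence on GRCm38.p6, the assembly that mm10 names, written on the gene's strand with the motifs in capitals. Ankrd1 and Tnnt2, both higher in T, carry M-CAT elements. Fhl1, also higher, carries a CArG box, as do the cardiac and skeletal α-actin genes Actc1 and Acta1, whose T libraries were all below S.
Ankrd1 (chr19:36120037-36120066, minus): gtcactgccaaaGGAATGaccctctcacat
Ankrd1 (chr19:36119950-36119979, minus): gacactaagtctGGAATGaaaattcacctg
Tnnt2 (chr1:135836184-135836333, plus): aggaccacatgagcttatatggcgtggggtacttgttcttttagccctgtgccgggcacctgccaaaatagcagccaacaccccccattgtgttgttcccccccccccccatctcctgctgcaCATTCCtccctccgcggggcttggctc
Fhl1 (chrX:56779533-56779682, plus): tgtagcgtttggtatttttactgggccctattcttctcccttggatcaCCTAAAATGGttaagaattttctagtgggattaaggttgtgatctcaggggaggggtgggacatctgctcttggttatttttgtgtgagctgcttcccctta
Actc1 (chr2:114052888-114053025, minus): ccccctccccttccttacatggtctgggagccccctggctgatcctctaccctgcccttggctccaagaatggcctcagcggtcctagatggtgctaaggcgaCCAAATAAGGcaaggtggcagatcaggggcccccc
Acta1 (chr8:123894776-123894925, minus): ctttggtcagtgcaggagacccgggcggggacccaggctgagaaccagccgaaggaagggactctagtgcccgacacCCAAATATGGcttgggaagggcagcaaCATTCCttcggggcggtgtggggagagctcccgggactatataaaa

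The M-CAT elements of Ankrd1 begin 210 and 123 bases before its start and lie in an exon of a longer GENCODE transcript, and that of Tnnt2 begins 27 bases before. The CArG boxes begin 102 bases before the Fhl1 start and 47 before the Actc1 start, both inside the annotated span of the gene, and 73 before the Acta1 start, and Acta1 also has an M-CAT 46 bases before. Tnnt2 and Fhl1 have 2 listed starts each. The start shown for them was chosen by its number of matches, so a match there is not a result. Over the 250 bases before each listed start, 40 of the 47 genes had an entry. A CArG box was found in 9 of the 40 (22.5%), against 1.62% of all genes with an entry. The MEF2 site, searched by that name's usual consensus, was found in 6 (15%, all genes 3.42%), and the M-CAT, searched as CATTCC or GGAATG, in 14 (35.0%, all genes 14.4%). Both strands were searched and each motif was counted on its own, also where matches overlap. By the call in T vs. S, a CArG box was found in 1 of 8 genes that rose, 1 of 4 that fell and 7 of 28 that did neither, and an M-CAT in 2 of 8, 1 of 4 and 11 of 28. A MEF2 site was found in 0 of 8, 0 of 4 and 6 of 28. A match describes these letters and is not evidence of binding.

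In T vs. S, 12 of the 47 genes rose and 5 fell. The largest rises were Tcap (2.44-fold) and Ankrd1 (2.09-fold), and the largest fall was the cardiac actin gene Actc1 (1.86-fold). Over all 13364 genes, 10.3% were higher and 11% lower, and 21.2% changed in either direction. The median log2 fold change of the 47 was 0.07, against -0.0038 over all genes. In A+T vs. T, edgeR's test called 0 of the 47 higher and 11 lower, against 3.09% higher and 2.79% lower over all genes (5.88% in either direction), and the median was -0.24 against 0.0098. At an unadjusted P-value threshold of 0.05, 1 was higher (Myl1) and 17 lower, against 11.8% and 10.6% of all genes, and DESeq2 and limma-voom also called 0 higher. At that threshold 12 were higher and 7 lower in T vs. S (all genes 17.3% and 18.1%), and 2 higher and 8 lower in A+T vs. S (13.6% and 12.5%). Because A+T vs. T reuses the T libraries of T vs. S, the signs of those comparisons are not independent. Against sham, 1 gene rose in A+T (Tcap) and 2 fell (Pdlim7 and Pdlim3), with 4.67% of all genes higher, 3.64% lower (8.31% in either direction) and a median of -0.16 against 0.0034.

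**Figure D1:**
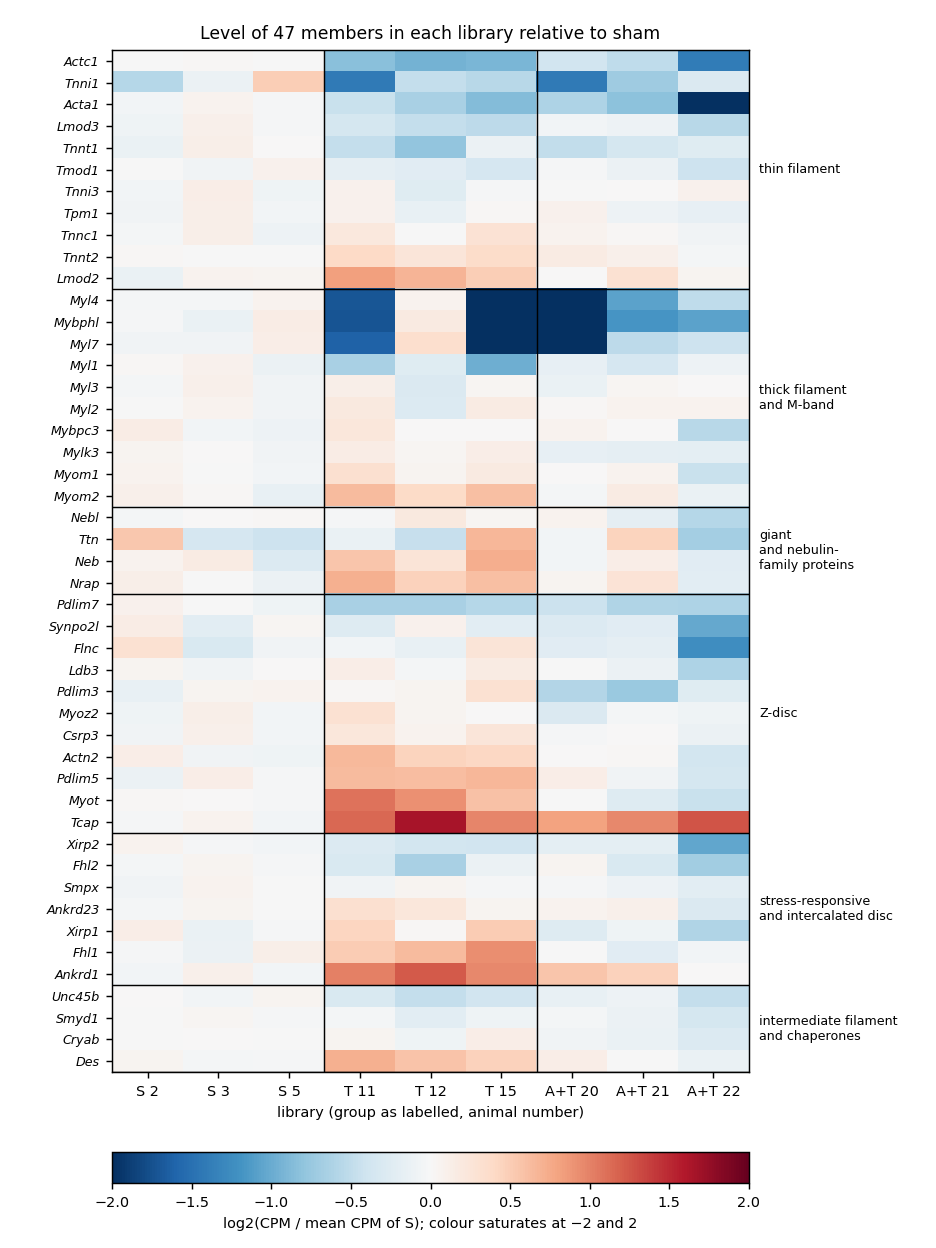
Level of each of the 47 genes (rows, grouped by role) in each library (columns, group as labelled and animal number), as log2 of CPM over the mean of the 3 S libraries, with colour saturating at -2 and 2. Tcap and Ankrd1 are red in all 3 T libraries, Actc1 is blue in all T and A+T libraries, and the atrial genes Myl4, Myl7 and Mybphl differ most between libraries of the same group.

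By the study's own rule of an unadjusted P-value below 0.05 and a fold of at least 1.5, 8 of the 47 were higher and 2 lower in T vs. S (all genes 5.2% and 9.01%), 0 higher and 8 lower in A+T vs. T (6.5% and 1.61%), and 1 higher and 2 lower in A+T vs. S (5.82% and 3.09%). All T libraries lay above all S libraries for 13 genes and below for 10 (all genes 21.2% and 21.5%). A+T and T libraries did not overlap for 17 genes, all lower in A+T (13.1% of all genes). Between A+T and S, 1 gene was higher and 14 were lower without overlap (16% and 16.5%).

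**Figure D2:**
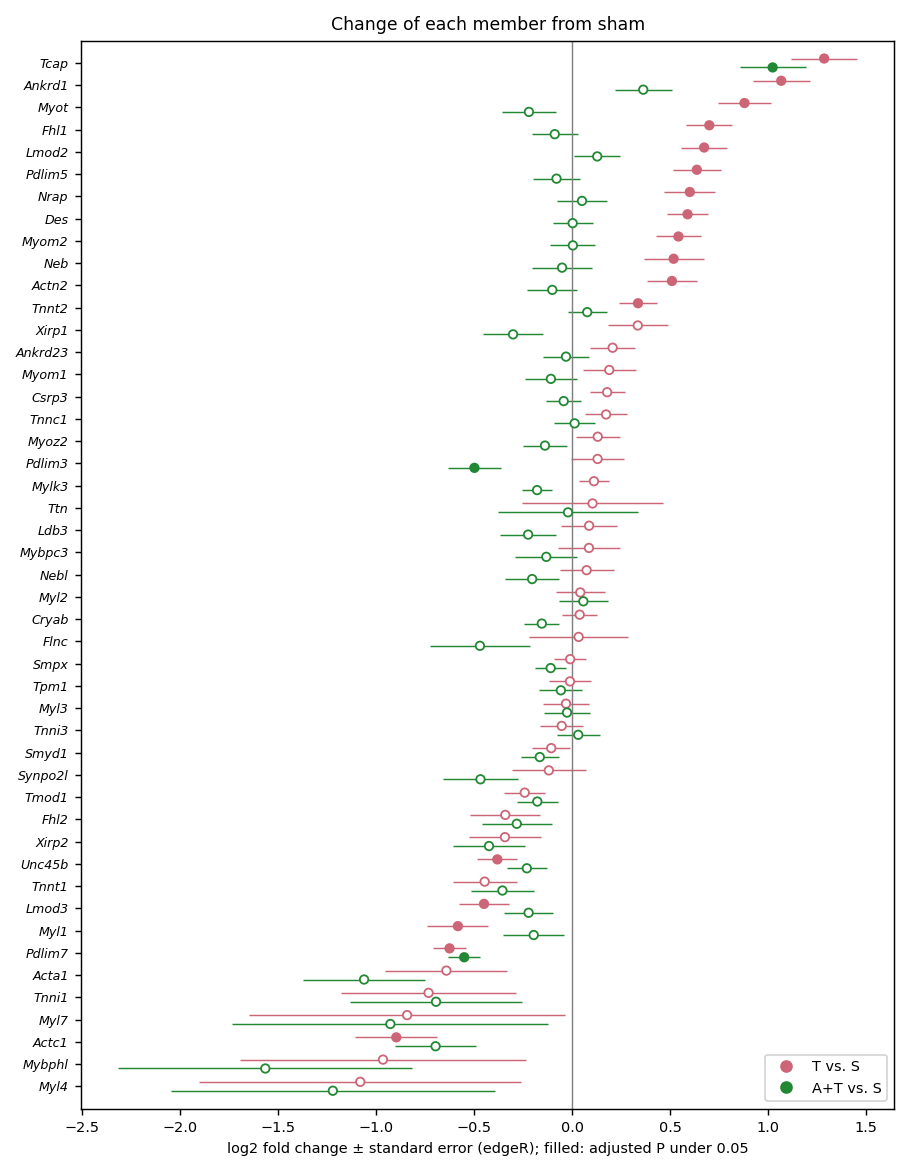
log2 fold change with its standard error (x axis) of each of the 47 genes (y axis, ordered by T vs. S) for T vs. S (red) and A+T vs. S (green), with filled points where the adjusted P-value is under 0.05. Filled red points number 12 to the right and 5 to the left, while filled green points number 3.

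The Z-disc held the gene with the largest rise and 4 of the 12 that rose in T vs. S, with 1 of its 11 members lower. Tcap, telethonin, which caps titin at the edge of the Z-disc, stood at 366, 391 and 356 CPM in sham, at 825, 1159 and 729 in T and at 649, 724 and 888 in A+T. Every T and A+T library lay above every S library. Tcap rose in T vs. S (log2 fold change 1.28 ± 0.17, adjusted P = 0.00085) and in A+T vs. S (1.02 ± 0.17, adjusted P = 0.0081), and A+T vs. T was -0.26 ± 0.17 (adjusted P = 0.38, 95% interval -0.63 to 0.11).

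Myot, myotilin, which bundles actin at the Z-disc, had 89, 87.7 and 85.7 CPM in sham, 186, 165 and 131 in T and 87.2, 73.5 and 64.4 in A+T. The T libraries stood apart from the other 6. Myot rose in T vs. S (0.88 ± 0.14, adjusted P = 0.0018) and fell by 1.10 ± 0.14 in A+T vs. T (adjusted P = 0.0034). Pdlim5, a PDZ and LIM domain protein that binds α-actinin and protein kinase C, had 834, 996 and 895 CPM in sham, 1407, 1389.5 and 1437 in T and 998, 864 and 715 in A+T. Its T values were the closest to each other, and none overlapped with S or A+T. Pdlim5 rose in T vs. S (0.64 ± 0.12, adjusted P = 0.0049) and was lower in A+T vs. T (-0.72 ± 0.12, adjusted P = 0.012).

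Actn2, sarcomeric α-actinin, which crosslinks thin filaments in the Z-disc, had 2470.0, 2135 and 2123 CPM in sham, 3531, 3045 and 2994 in T and 2258, 2272 and 1737 in A+T. All T values were the highest of the 9. It rose in T vs. S (0.51 ± 0.13, adjusted P = 0.018) and was lower in A+T vs. T (-0.61 ± 0.13, adjusted P = 0.025). Its call in A+T vs. T was lost without T animal 11 (adjusted P = 0.10), and that in T vs. S without S animal 3, S animal 5 or T animal 11 (adjusted P up to 0.072).

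A pair of other PDZ and LIM domain genes went another way. Pdlim7, enigma, had 41.6, 38.7 and 36.9 CPM in sham, 25, 24.8 and 26.2 in T and 28.9, 25.7 and 25.4 in A+T. Both host groups lay below sham without overlap. Pdlim7 fell in T vs. S (-0.63 ± 0.08, adjusted P = 0.00088) and in A+T vs. S (-0.55 ± 0.08, adjusted P = 0.0058), with 0.07 ± 0.08 between A+T and T (adjusted P = 0.65). Pdlim3, an α-actinin-associated LIM protein, had 21.5, 24.9 and 25.1 CPM in sham, 24.3, 24.7 and 29.4 in T and 15.9, 14.3 and 20.2 in A+T. The A+T libraries were the lowest 3 of the 9. Pdlim3 was lower in A+T vs. T (-0.63 ± 0.14, adjusted P = 0.027) and in A+T vs. S (-0.50 ± 0.14, adjusted P = 0.048), and the latter call held in 1 of the 9 fits with an animal left out.

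The other 6 Z-disc genes (Ldb3, Csrp3, Myoz2, Flnc, Synpo2l and Pdlim3) were not called in T vs. S, at -0.12 to 0.18 on the log2 scale. Csrp3, the muscle LIM protein known for stretch sensing, was at 0.18 ± 0.09 (adjusted P = 0.18).

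**Figure D3:**
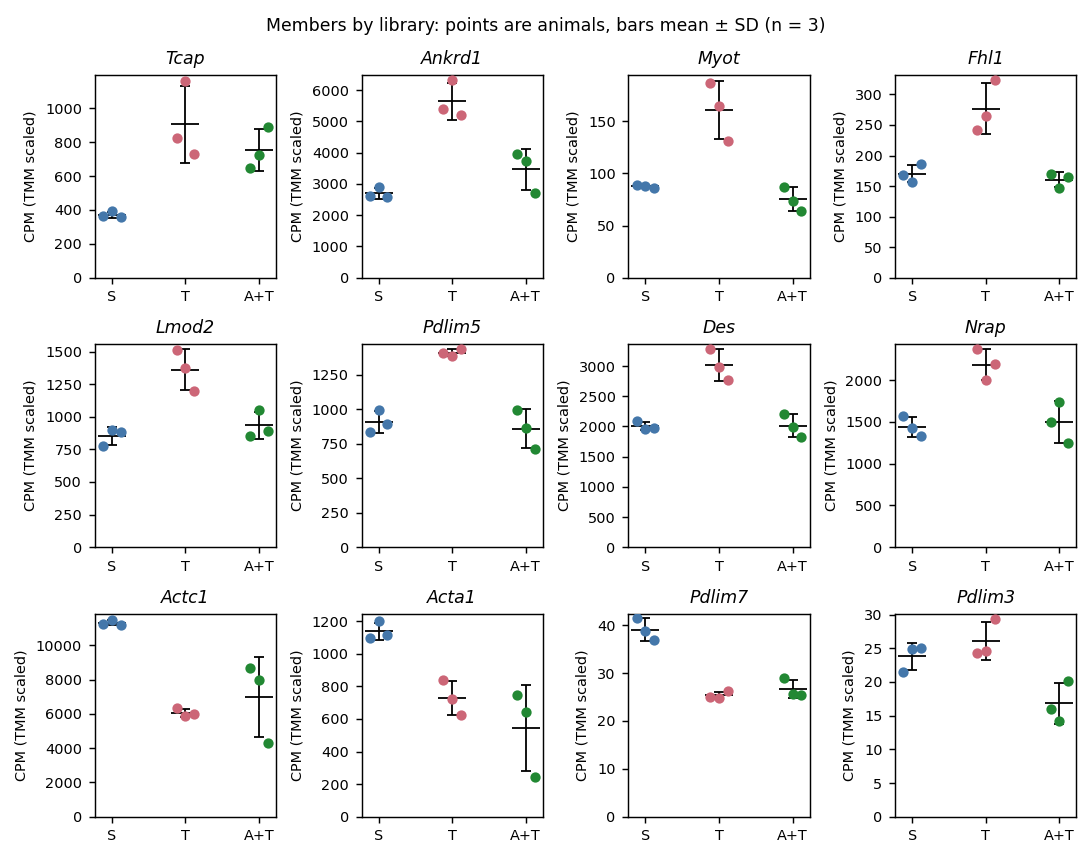
CPM (y axis, from 0) of 12 of the genes in each library (points), with the mean and SD of the 3 animals of each group (bars). Tcap, Ankrd1, Myot, Fhl1, Lmod2, Pdlim5, Des and Nrap are higher in each T library than in any S library, Actc1, Acta1 and Pdlim7 are lower, and Pdlim3 is lowest in A+T.

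Of the 7 stress-responsive and intercalated disc genes 2 rose and 0 fell in T vs. S, and 3 were lower in A+T vs. T. Ankrd1, a titin-binding ankyrin repeat protein and cofactor of transcription known to rise with load, had 2602, 2890.3 and 2589 CPM in sham, 5394, 6306 and 5218 in T and 3958, 3726 and 2702 in A+T. The T libraries were highest, and A+T animals 20 and 21 lay between T and S. Ankrd1 rose in T vs. S (1.07 ± 0.15, adjusted P = 0.00099) and was lower in A+T vs. T (-0.70 ± 0.15, adjusted P = 0.024), while A+T vs. S was 0.36 ± 0.14 (adjusted P = 0.14). Without A+T animal 22 the last value was 0.52 and passed the test (adjusted P = 0.019). Its call in A+T vs. T was lost without T animal 11 or T animal 12 (adjusted P up to 0.077).

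Fhl1, a LIM domain protein of the stretch-sensing complex on titin, had 168, 157 and 186 CPM in sham, 242, 265 and 324 in T and 169.7, 147 and 164 in A+T. The lowest T library was above the highest of the other 6. Fhl1 rose in T vs. S (0.70 ± 0.12, adjusted P = 0.0026) and fell by 0.79 ± 0.12 in A+T vs. T (adjusted P = 0.0072). Fhl1 and Myot kept both calls in all 9 fits with an animal left out. Xirp1, Xin, an actin-binding protein of the intercalated disc, had 354, 293 and 318 CPM in sham, 435, 327 and 456 in T and 269.8, 302 and 211 in A+T. T and S overlapped (0.33 ± 0.15, adjusted P = 0.15), whereas A+T lay below T (-0.64 ± 0.15, adjusted P = 0.041), a call held in 2 of the 9 fits with an animal left out. Ankrd23, Xirp2, Fhl2 and Smpx were not called in any comparison. Ankrd23 shares 82.7% of its 75-base windows with the annotated transcript Gm42417, so its counts may be uncertain. Whether both lie at the same locus was not checked.

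Among the 11 thin filament genes 2 rose and 2 fell in T vs. S. Lmod2, leiomodin 2, which nucleates actin at pointed ends and is needed for thin filament length in the heart, had 777, 902 and 885 CPM in sham, 1513, 1375 and 1197 in T and 856, 1053 and 891 in A+T. No T library overlapped with the others. Lmod2 rose in T vs. S (0.67 ± 0.12, adjusted P = 0.0032) and was lower in A+T vs. T (-0.55 ± 0.12, adjusted P = 0.027). Its relative Lmod3, best known from skeletal muscle, had 108, 123 and 112 CPM in sham, 89.4, 82.2 and 79.3 in T and 110.4, 106 and 77.5 in A+T. It fell in T vs. S (-0.45 ± 0.13, adjusted P = 0.028), so that the leiomodin genes moved in opposite directions, although the Lmod3 call was held in 3 of the 9 fits with an animal left out.

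Tnnt2, cardiac troponin T, had 9652, 9518 and 9459 CPM in sham, 12536, 11285 and 12296 in T and 10696, 10186 and 9298 in A+T. T lay above S without overlap by a small margin of 1.26-fold (0.34 ± 0.10, adjusted P = 0.036), a call held in 2 of the 9 fits with an animal left out. Actc1, the main α-actin of the adult heart, had 11237, 11484 and 11198 CPM in sham, 6328, 5876 and 5996 in T and 8647, 7961 and 4306 in A+T. Both host groups lay below sham, with A+T animal 22 the lowest library of the 9 and the other A+T libraries above T. Actc1 fell in T vs. S (-0.90 ± 0.21, adjusted P = 0.013), and A+T vs. S was -0.70 ± 0.21 (adjusted P = 0.066). Without A+T animal 22, Actc1 was lower in A+T vs. S (-0.44, adjusted P = 0.020) and higher in A+T vs. T (0.45, adjusted P = 0.015).

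Acta1, skeletal α-actin, the fetal form, had 1098, 1198 and 1114 CPM in sham, 837, 724 and 623 in T and 745, 644 and 244 in A+T. Its T libraries lay below S, with -0.64 ± 0.31 (adjusted P = 0.17), which passed without A+T animal 22 (-0.63, adjusted P = 0.0020). The A+T libraries also lay below S, at -1.06 ± 0.31 (adjusted P = 0.063), which passed with DESeq2 (adjusted P = 0.028), with limma-voom (adjusted P = 0.049), and without A+T animal 20 (-1.36, adjusted P = 0.037) or A+T animal 22 (-0.70, adjusted P = 0.010). The other troponin, tropomyosin and tropomodulin genes (Tpm1, Tnni3, Tnnc1, Tnni1, Tnnt1 and Tmod1) were not called in any comparison. Tpm1, at 4642 to 5565 CPM over the 9 libraries, had -0.01 ± 0.11 in T vs. S (95% interval -0.25 to 0.23), and Tnni3, cardiac troponin I, -0.05 ± 0.11 (-0.30 to 0.19).

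The 10 thick filament and M-band genes included 1 that rose and 1 that fell in T vs. S. Myom2, M-protein, which links myosin filaments at the M-band, had 2760.0, 2617 and 2331 CPM in sham, 3988, 3343 and 3887 in T and 2504, 2868 and 2353 in A+T. The T libraries were the highest 3. It rose in T vs. S (0.54 ± 0.11, adjusted P = 0.0082) and was lower in A+T vs. T (-0.54 ± 0.11, adjusted P = 0.026), and in A+T vs. S its 95% interval was -0.25 to 0.26. Myl1, the fast skeletal essential light chain, had 69.5, 72.1 and 62.5 CPM in sham, 43.6, 57.6 and 34.4 in T and 60.6, 53.8 and 63.7 in A+T. It fell in T vs. S (-0.58 ± 0.16, adjusted P = 0.024), and 11.2% of its 75-base windows occur in the pseudogene Mylf-ps.

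The major ventricular light chains were not called: Myl2 had 0.04 ± 0.13 in T vs. S (95% interval -0.24 to 0.32) and Myl3 -0.03 ± 0.12 (-0.30 to 0.23). Mylk3, the cardiac myosin light chain kinase, was below T in all A+T libraries (-0.29 ± 0.08, adjusted P = 0.054), and Mybpc3 and Myom1 were not called. Of the giant and nebulin-family genes 2 of 4 rose. Nrap, which anchors actin at myofibril ends and takes part in myofibril assembly, had 1568, 1429.5 and 1330.0 CPM in sham, 2372, 1996 and 2189 in T and 1494, 1743 and 1242 in A+T. T was highest without overlap, with a rise of 0.60 ± 0.13 in T vs. S (adjusted P = 0.0093) and a lower level in A+T vs. T (-0.55 ± 0.13, adjusted P = 0.038).

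Neb, nebulin, the thin filament ruler of skeletal muscle, was scarce, with 15.8, 16.8 and 12.4 CPM in sham, 22, 17.9 and 24.9 in T and 14.4, 16.4 and 12.8 in A+T. It rose in T vs. S (0.52 ± 0.15, adjusted P = 0.036), a call held in 5 of the 9 fits with an animal left out. Nebl, the cardiac nebulette, was not called (0.07 ± 0.14). Ttn, titin, ranged from 6898 to 15106 CPM within the T group alone, and its T vs. S value of 0.10 ± 0.36 had a 95% interval of -0.69 to 0.90.

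Des, desmin, the intermediate filament that ties Z-discs together, had 2083, 1964 and 1976 CPM in sham, 3292, 2985 and 2776 in T and 2206, 1999.7 and 1824 in A+T. The T libraries stood above the other 6. Des rose in T vs. S (0.59 ± 0.10, adjusted P = 0.0032), was lower in A+T vs. T (-0.59 ± 0.10, adjusted P = 0.013), and its interval in A+T vs. S was -0.22 to 0.23. Unc45b, the myosin chaperone, had 215, 206 and 222 CPM in sham, 174, 155 and 165 in T and 193, 199.9 and 155 in A+T. It fell in T vs. S (-0.38 ± 0.10, adjusted P = 0.023), held in 5 of the 9 fits with an animal left out. The chaperone Cryab, which protects desmin, and the methyltransferase Smyd1 were not called (0.04 ± 0.09 and -0.11 ± 0.10 in T vs. S).

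Calls differed in how far they rested on 1 animal. In T vs. S, 11 of the 17 calls (Tcap, Ankrd1, Myot, Fhl1, Lmod2, Pdlim5, Nrap, Des, Myom2, Actc1 and Pdlim7) held in every fit with 1 animal left out, while Myl1 held in 5 of 9 (adjusted P up to 0.082). In A+T vs. T, 2 of the 11 calls (Myot and Fhl1) held without T animal 11. Without that animal Pdlim5 had an adjusted P of 0.054 and Des of 0.060, each its only loss. Lmod2 was also lost without T animal 12 or A+T animal 20 (adjusted P up to 0.11), Myom2 without S animal 3, T animal 15 or A+T animal 20 (up to 0.11), Nrap held in 3 of 9 fits (up to 0.14) and Pdlim3 in 4 of 9 (up to 0.078).

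A+T animal 22 was the lowest of the 9 libraries for 28 of the 47 genes, against 17.8% of all genes tested, and it is the library with the highest sum of airway and lung markers. Leaving out that library and the library of T animal 12 gave 16 genes higher and 11 lower in T vs. S, 2 higher (Actc1 and Myl1) and 12 lower in A+T vs. T, and 2 higher and 4 lower in A+T vs. S.

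Myl4, Myl7 and Mybphl are atrial genes: the atrial light chains and a myosin-binding protein of the atria and conduction system. Myl4 had 524, 525 and 563 CPM in sham, 164, 566 and 28.9 in T and 59.3, 255 and 377 in A+T. Myl7 had 308, 309.9 and 354 CPM in sham, 106, 410.3 and 23.2 in T and 43.3, 225 and 242 in A+T. Mybphl had 67.8, 63.1 and 76.6 CPM in sham, 21, 78.7 and 4.4 in T and 6.80, 30.4 and 32.9 in A+T. In all 3 genes the sham libraries were close to each other, T animal 12 was above sham, T animal 15 was lowest, and every A+T library lay below sham.

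None of the 3 was called in T vs. S (log2 fold changes -1.08 ± 0.82, -0.84 ± 0.81 and -0.97 ± 0.73, adjusted P = 0.38, 0.49 and 0.38) or in A+T vs. S (adjusted P = 0.38, 0.50 and 0.22), nor in A+T vs. T (adjusted P = 0.94, 0.97 and 0.68). Without T animal 12 the T vs. S values were -2.46 for Myl4 (adjusted P = 0.062), -2.31 for Myl7 (adjusted P = 0.060) and -2.39 for Mybphl (adjusted P = 0.037). Without animals 12 and 22 all 3 were lower in T vs. S (-2.45, -2.29 and -2.36, adjusted P = 0.024, 0.029 and 0.014). The atrial markers outside the 47 genes (Nppa, Sln, Bmp10, Nr2f1, Stard10 and Dkk3), a sum led by Nppa, came to 2331-2458 CPM in sham, 849.5-3896 in T and 737-1612 in A+T, with T animal 12 highest and A+T animal 20 and T animal 15 lowest. Bmp10, a ligand made in the atria, had another pattern, with 66.1, 158 and 91.8 CPM in sham, 1.86, 1.13 and 1.78 in T and 0.247, 0.359 and 51.5 in A+T. It was low in T animal 12 too, and was the only one of the 6 called in T vs. S (-6.07 ± 1.43, adjusted P = 0.013). How much atrium each sample held was not tested. The counts of genes past the adjusted threshold were the same over the 44 other genes as over the 47.

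**Figure D4:**
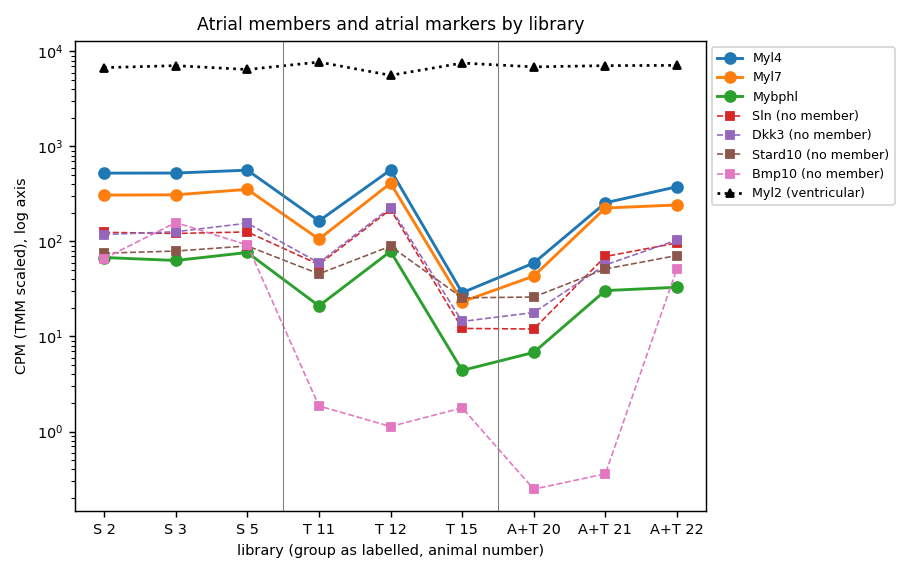
CPM on a log axis (y) of the 3 atrial genes (solid lines), of 4 atrial markers that are not among the 47 (dashed) and of ventricular Myl2 (dotted) in each library (x axis, group as labelled and animal number). Myl4, Myl7, Mybphl, Sln, Dkk3 and Stard10 share low values in T animal 15 and A+T animal 20 and stand highest of the T libraries in T animal 12, Bmp10 does not, and Myl2 stays between 5610.4 and 7725 CPM.

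Levels of different genes were compared on the deposited log2 scale, which is scaled by length. In sham hearts Myl2 stood highest at 13.37 ± 0.07 (SD, n = 3), followed by Actc1 at 12.98 ± 0.02, Tnnt2 at 12.89 ± 0.01, Tnni3 at 12.28 ± 0.11 and Myl3 at 12.02 ± 0.09, each gap being larger than the spread. Tpm1 (10.60 ± 0.10) and Ankrd1 (10.57 ± 0.09) did not differ beyond the spread between animals in S, although Tpm1 was above Ankrd1 in each of the 3 S libraries. In T, Ankrd1 stood at 11.63 and Tpm1 at 10.59. Actc1 was below Tnnt2 in T, at 12.08 against 13.22. Pdlim7 (3.70), Tnni1 (-0.28) and Neb (-0.59) were the lowest 3 in S.

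**Figure D5:**
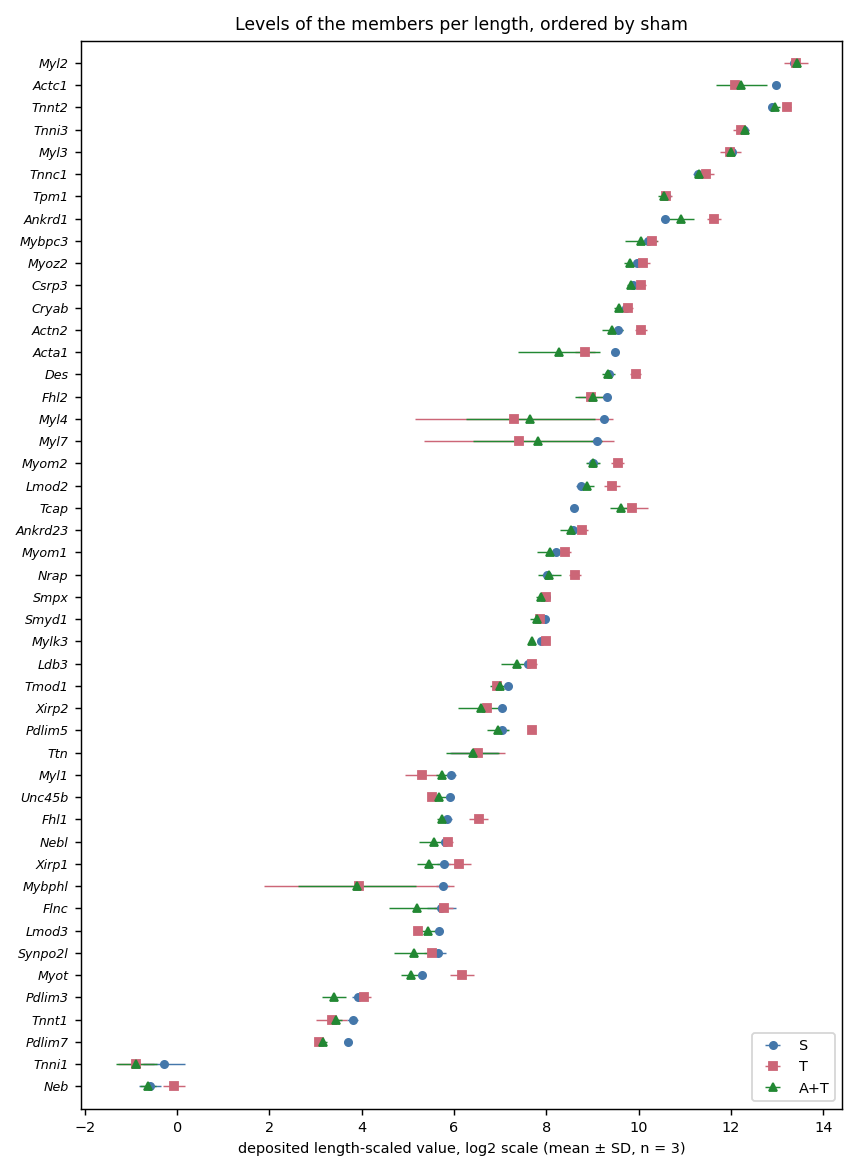
Deposited length-scaled log2 value (x axis, mean and SD of 3 animals) of each of the 47 genes (y axis, ordered by S) in S (circles), T (squares) and A+T (triangles). Ankrd1, Tcap, Des, Pdlim5 and Myot sit further right in T than in S, Actc1 sits further left, and the widest bars belong to Myl4, Myl7 and Mybphl.

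For 6 pairs of related genes the share of the fetal, atrial or skeletal form was computed on the same scale. The log2 ratio of the paired genes, which rises with the share, was compared by a two-sided exact permutation test. The smallest P-value of that test with 3 against 3 is 0.1. Acta1 made up 8.16 ± 0.26% (SD, n = 3) of Acta1 plus Actc1 in sham, 9.57 ± 1.05% in T and 6.18 ± 1.24% in A+T. A+T libraries lay below both other groups (exact permutation P = 0.1 against each), while T and S overlapped (P = 0.2 by the same exact test). Tnnt1, the slow skeletal troponin T, was 0.184 ± 0.017% of Tnnt1 plus Tnnt2 in sham, 0.108 ± 0.022% in T and 0.138 ± 0.021% in A+T, with every T and A+T library below S (exact permutation P = 0.1 for each). Tnni1, the slow skeletal troponin I of the fetal heart, was at most 0.0244% of Tnni1 plus Tnni3 in any library. Myl7 was 4.90 ± 0.57% of Myl7 plus Myl2 in sham, 3.02 ± 3.73% in T and 2.49 ± 1.58% in A+T, and Myl4 was 12.7 ± 1.01% of Myl4 plus Myl3 in sham, 6.81 ± 7.90% in T and 5.74 ± 3.77% in A+T, following the atrial pattern above. Neb was 1.19 ± 0.20% of Neb plus Nebl in sham, 1.63 ± 0.35% in T and 1.35 ± 0.23% in A+T, with overlap between all groups.

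A separate list held 64 other genes of the sarcomere, the costamere and the intercalated disc, of which 61 were tested. In T vs. S 11 rose and 7 fell (all genes 10.3% and 11%). In A+T vs. T edgeR called 0 higher and 6 lower (all genes 3.09% and 2.79%). In A+T vs. S 3 were higher and 6 lower (all genes 4.67% and 3.64%). At an unadjusted P-value threshold of 0.05, 5 of the 61 were higher and 21 lower in A+T vs. T (all genes 11.8% and 10.6%). The largest rise was Myh7, the slow β-myosin heavy chain, with 1535, 1254 and 1292 CPM in sham, 11599.7, 12798 and 11976 in T and 2583, 2251 and 2396 in A+T. The T libraries stood far above the rest, at 3.16 ± 0.12 in T vs. S on the log2 scale (adjusted P = 7.5e-07) and -2.33 ± 0.11 in A+T vs. T (adjusted P = 1.2e-05). Trim63, the muscle ubiquitin ligase MuRF1, rose by 0.74 ± 0.10 (adjusted P = 0.00091), and Cdh2, N-cadherin of the intercalated disc, by 0.62 ± 0.10 (adjusted P = 0.0024). The largest falls were those of the non-muscle and smooth muscle tropomyosin genes Tpm4 (-0.88 ± 0.13, adjusted P = 0.0016) and Tpm2 (-0.78 ± 0.25, adjusted P = 0.047), and of the small heat shock gene Hspb1 (-0.55 ± 0.07, adjusted P = 0.00059).

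Of 19 regulators that act through SRF, MEF2, YAP and TEAD or sense load, 15 were in the table. In T vs. S 1 rose, Ctgf, a YAP target known to rise under load (1.48 ± 0.16, adjusted P = 0.00024). Its values were 171, 139 and 179.7 CPM in sham, 426, 545 and 398 in T and 151, 174 and 209 in A+T, with T apart from both other groups, and it was lower in A+T vs. T (-1.36 ± 0.16, adjusted P = 0.0027). The 3 that fell were Mkl1, a cofactor of SRF (-0.91 ± 0.19, adjusted P = 0.0075), the YAP relative Wwtr1 (-0.32 ± 0.07, adjusted P = 0.013) and Srf itself (-0.31 ± 0.09, adjusted P = 0.036). Over all genes, 10.3% were higher and 11% lower in T vs. S. Cyr61 of the same list was not called but went the opposite way to Ctgf. Cyr61 had -0.47 ± 0.15 in T vs. S (adjusted P = 0.052), with all T libraries below S. In A+T vs. T it had 0.48 ± 0.15 (adjusted P = 0.092). Of the 15, 0 rose and 3 fell in A+T vs. S, namely Srf, Wwtr1 and Myocd (all genes 4.67% higher and 3.64% lower). Yap1, Tead1, Mef2a, Mef2c and Mef2d were not called in any comparison.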

How the data were processed

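The data are from 9 mouse hearts (groups S, T and A+T, n = 3 each, as given by the sample labels). Per the labels, all hearts were extracted and sequenced at one time. The authors mapped the reads with STAR (mm10), and summed unique pairs per refGene gene, by strand, in featureCounts. They deposited raw counts per gene and a table of log2 normalized values. After an offset per library was removed, the deposited log2 values differed from log2 CPM without TMM scaling by a constant per gene. The median SD was 0.000205 over 3351 genes, as for values scaled by length. The submitters' notes also name FastQC and edgeR, without versions.

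Genes with CPM below 0.5 in more than 4 of 9 libraries were removed (526 of 13890). edgeR 4.0.16 (R 4.3.3) was fitted to all 9 libraries with TMM factors and the quasi-likelihood test, after testing on simulated data. The standard error is the log2 fold change over the square root of F, and 95% intervals use its degrees of freedom. The labels pair no animals across groups, and P-values measure the spread between these animals. The total of 12392222 to 19732471 counts a library limits the precision of scarce genes such as Tnni1. The gene Rn45s took 4.57 to 19.6% of counts. No replicate pair agreed within counting noise (chi-square per gene at least 7.48).

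The 48 genes and all lists were chosen with earlier results of these data known. Values are given for each gene that passed the adjusted threshold in any comparison, the 3 atrial genes, the pairs, and the 3 largest changes per direction in T vs. S of the 2 other lists of pathway genes. Cell type lists were those of cardiomyocytes, atria, skeletal and smooth muscle, fibroblasts, endothelium, and airway and lung. Gene models and UTRs were those of GENCODE M21 (GRCm38), and promoters those of RefSeq (GRCm38.p6, 32851 promoters). Windows of 75 bases were compared between transcripts to find shared sequence. Alternatives were DESeq2 1.42.0, limma-voom (limma 3.58.1), upper-quartile factors, library size only, no filter, the groups compared only, limma on the deposited values, and each animal left out. Fits without Rn45s, and without animals 12 and 22, were added after seeing the data. Figures were drawn with Python 3.11.15 and matplotlib 3.10.9. No library carried a label of antagonist without tumour. The fold changes and P-values that the study lists were used for the check of the labels only.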

Additional observations from a re-analysis of the deposited data

How the results depend on the processing

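The call changes are given as numbers of the 47 genes. In T vs. S, 12 higher and 5 lower became 9 and 2 with library size only. The fit without animals 12 and 22 gave 11 lower. In A+T vs. T, 0 higher and 11 lower became 4 lower with library size only and 3 lower (Myot, Pdlim5 and Fhl1) with only the groups compared, and 2 higher without animals 12 and 22. In A+T vs. S, 1 higher and 2 lower became 4 lower with DESeq2 (adding Actc1 and Acta1), 1 lower with upper-quartile factors, library size only, no filter, only the groups compared or without Rn45s, and 2 higher and 4 lower without animals 12 and 22.

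Leaving out 1 animal at a time gave 9 to 12 higher and 2 to 8 lower in T vs. S, 0 to 2 higher and 2 to 10 lower in A+T vs. T (2 without T animal 11, 6 without A+T animal 20), and 1 to 2 higher and 1 to 4 lower in A+T vs. S. T vs. S was lowest at 2 lower without S animal 2 and highest at 8 without A+T animal 22. Of the 17 genes called in T vs. S, 11 were called in each fit that left out an animal and 11 in each other alternative. In A+T vs. T these were 2 and 3 of 11, and in A+T vs. S 2 and 2 of 3. No called gene and no atrial gene changed sign in the alternatives run for T vs. S and A+T vs. S. Nor did any called gene in A+T vs. T. Of 666 values for these genes in those comparisons, 95 lost the threshold and 4 gained it. Genes outside that set also passed in some alternatives, such as Mylk3 and Neb in A+T vs. T, and Actc1 and Acta1 in A+T vs. S. Where an arm kept 2 animals, the spread was pooled over groups. The cause of each change was not tested. Genes below 1 CPM, such as Tnni1, are limited by depth. No paired analysis was possible because the labels give no number that links animals of different groups.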

Other observations

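Summed levels by role differed in order between the groups. The 11 Z-disc genes summed to 7389-7847 CPM in sham, 9664-10431 in T and 6448-7716 in A+T, and the 7 stress-responsive and intercalated disc genes to 6713-7118, 9267-9989 and 5379.7-7979. The 4 intermediate filament and chaperone genes summed to 4074-4186, 4864-5380 and 3510-4225. For each of these roles, every T library lay above every sham library. The 10 thick filament and M-band genes summed to 20379-22216 CPM in sham, 20653-24884 in T and 19260-21815 in A+T, with overlap. The 11 thin filament genes summed to 33748-35649 CPM in sham, 29606-33592 in T and 25781-32912 in A+T, with each host library below each sham library, T animal 11 by a narrow margin. The giant and nebulin-family genes, most of whose counts are Ttn, ranged from 9104 to 17491 within T and from 8686 to 15539 within sham, so that their groups overlapped. These sums were not tested, and each is led by a few abundant genes.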
